A study of Mus musculus with 23 samples.

Results

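Irx3 is 1 of the 3826 genes on a targeted sequencing panel that was read in 23 mouse mammary carcinomas. It was taken up because the earlier comparison of the groups put it among the genes with the smallest p, so it was chosen by its difference between groups, which is described here without a test. The genes that moved with Irx3 within each group are a separate question, and those slopes were tested across the whole panel. The tumours fell into 12 from mice given abemaciclib, a drug that blocks the cell cycle kinases CDK4 and CDK6, at 90 mg/kg daily by gavage, and 11 from mice given the vehicle, called control. All the mice had received doxycycline from 6 weeks of age to induce the tumours, and the transgene, its promoter and the strain are not given in the labels. Tissue was frozen after the 12th dose in both groups. The labels give each tumour a number but do not say which animal it came from, and the p-values measure the spread between these tumours. Each library was built by amplifying a stretch of about 110 bp from each panel gene, and the deposited values are raw read counts.

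Irx3 encodes a transcription factor of the Iroquois family, which belongs to the TALE class of homeobox proteins. These factors bind DNA through a homeodomain and set regional identity in the embryo, where Irx3 is best known from the neural tube, limb bud and heart. Irx3 has also been studied in hypothalamus and adipose tissue as a regulator of energy balance. In the mouse genome Irx3, Irx5 and Irx6 lie together on chromosome 8, and Irx1, Irx2 and Irx4 on chromosome 13. TALE proteins of the Meis and Tgif families are relatives, and Hedgehog and BMP signals are among the inputs that shape Iroquois expression in embryos.

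In the GENCODE annotation of GRCm38 (mm10), Irx3 (ENSMUSG00000031734.13) occupies chr8:91798525-91802067 on the minus strand, in 4 exons with 1521 bases of coding sequence. The homeobox is the stretch that the family shares, and it is shown because reads of an amplicon from it could not easily be told from those of a relative. Every window of 110 bases in the Irx3 coding sequence, the length of a panel amplicon, was compared with the coding sequence of each other Iroquois gene. The window with the most matching bases, which lay in exon 2, is printed. Its closest match was in Irx6, and the capital letters mark the 1 base at which they differ (5′ to 3′ on the coding strand, Irx3 at chr8:91800517-91800626 on the minus strand and Irx6 at chr8:92677294-92677403 on the plus strand).
Irx3: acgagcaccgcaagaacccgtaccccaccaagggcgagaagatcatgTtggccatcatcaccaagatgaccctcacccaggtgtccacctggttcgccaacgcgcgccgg
Irx6: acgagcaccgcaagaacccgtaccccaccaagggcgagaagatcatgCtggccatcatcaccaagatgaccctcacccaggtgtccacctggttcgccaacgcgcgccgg
Over the best window of this length, found separately for each gene, identity with Irx3 was 99.1% for Irx6, 97.3% for Irx5, 93.6% for Irx2 and 92.7% for each of Irx1 and Irx4. The longest identical run was 88 bases with Irx6 and 50 bases with Irx5. The annotation also places an exon of the antisense transcript Irx3os over 124 bases of Irx3 exon 2, at chr8:91800415-91800538. Neither the position of the Irx3 amplicon nor the strand setting of the counting was stated. Whether reads of Irx6, Irx5 or Irx3os entered the Irx3 count was not tested.

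Irx3 was lower in abemaciclib tumours, at 67.4% of the mean control level. It averaged 127 ± 14.6 CPM, the read count scaled by depth with TMM-adjusted library totals, in abemaciclib tumours and 188 ± 48.5 CPM in control tumours (SD, n = 12 and n = 11). The fitted log2 fold change, abemaciclib over control, was -0.57 (SE 0.118). Scaling by library totals alone moved the median log2 difference of all genes to -0.13, from -0.01 with TMM, and the fold change of Irx3 to -0.69. Because this contrast chose the gene, these values describe it and carry no test. In these bulk tumours, fewer cells of a type and less RNA per cell cannot be told apart.

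Among abemaciclib tumours, Irx3 was highest in tumours 9, 11 and 7, at 150.4, 149.7 and 147 CPM. The other 9 abemaciclib tumours lay between 109 CPM in tumour 3 and 132 CPM in tumour 4, with a group median of 121 CPM. Among control tumours, the highest were tumour 9 at 288 CPM, tumour 4 at 237 CPM, tumour 6 at 217 CPM, tumour 7 at 200.2 CPM and tumour 3 at 198 CPM. Tumours 2, 11, 10 and 8 of the control group followed at 185, 179, 159 and 152 CPM, and tumours 5 and 1 were lowest at 138 and 115 CPM. The groups therefore overlapped through control tumours 5 and 1, which lay within the abemaciclib range. The other 9 control tumours were above every abemaciclib tumour, and 12 of 12 abemaciclib tumours were below the control median of 185 CPM.

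**Figure D1:**
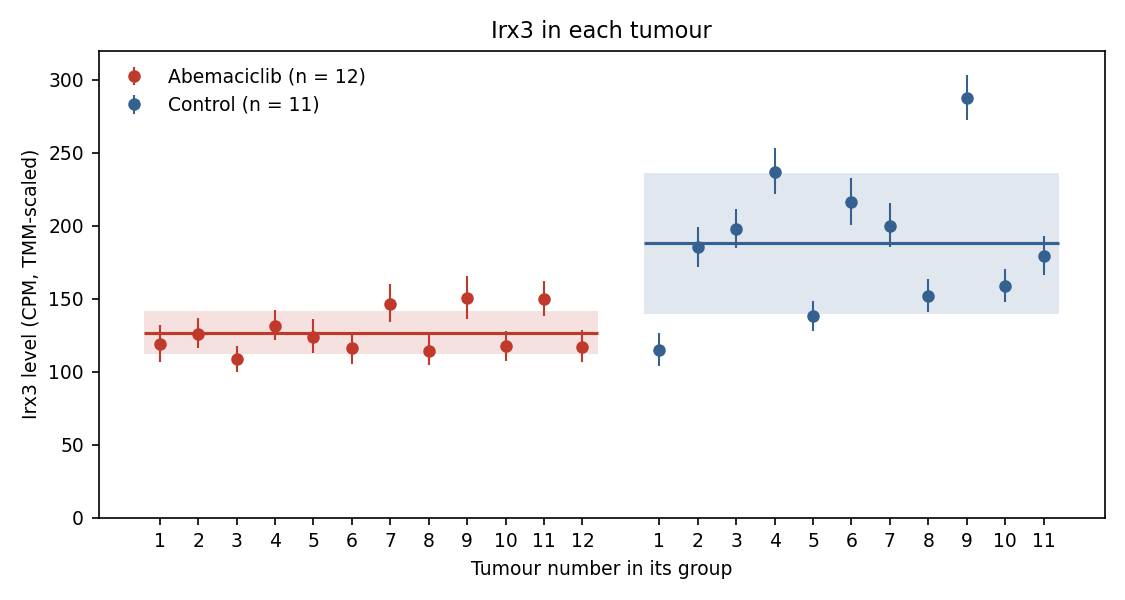
The level of Irx3 (CPM, TMM-scaled) in each tumour, with abemaciclib tumours on the left and control tumours on the right; points carry exact 95% Poisson intervals for counting error, lines are group means and shaded bands are 1 SD. Abemaciclib tumours sit between 109 and 150.4 CPM, and 9 of 11 control tumours lie above them.

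Counting error was a small part of this spread. Irx3 was read 348 to 652 times in abemaciclib libraries and 398 to 1325 times in control libraries, which gives a counting coefficient of variation of 2.75% to 5.36% per library. The coefficient of variation between tumours was 11.5% in the abemaciclib group and 25.8% in the control group. Amplicon reads carry no molecular identifiers, so the intervals cover counting error only. Control tumour 1, the lowest of its group, held 398 Irx3 reads, with an exact Poisson interval of 104 to 127 CPM. Control tumour 9, the highest, held 1325 reads, with an interval of 273 to 304 CPM.

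The tumours also differed in how far Irx3 varied within a group. On the log2 CPM scale its SD was 0.16 in abemaciclib tumours and 0.37 in control tumours, a ratio of 0.433. The median over the 2925 tested genes ran the other way, with SDs of 0.38 and 0.34 and a median ratio of 1.14. Of the tested genes, 3.18% had a lower SD than Irx3 in abemaciclib tumours, 57.6% had a lower SD in control tumours, and 0.513% had a lower ratio. Among the 1052 genes within 1 log2 unit of the mean level of Irx3, those shares were 4.85%, 75.8% and 0.76%. Irx3 was thus among the least variable panel genes in abemaciclib tumours and ordinary in control tumours. A small spread within groups lowers the p that chose Irx3, so this ranking is a description and was given no test. Without control tumour 1 or control tumour 9 the share of genes with a lower ratio was 2.05% and 2.02%, and over all the leave-one-out comparisons it was 0.239% to 2.05%.

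**Figure D2:**
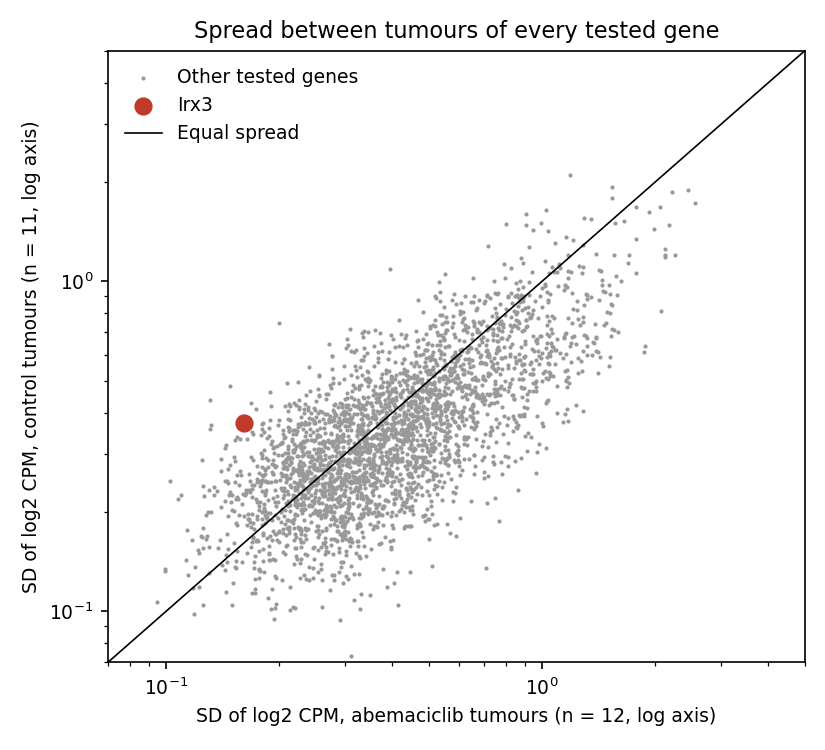
The SD of log2 CPM between abemaciclib tumours (horizontal, log axis, n = 12) and between control tumours (vertical, log axis, n = 11), 1 point per tested gene, with Irx3 in red and a line of equal spread. Irx3 stands above the line at SDs of 0.16 and 0.37.

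Library totals ran from 2756919 to 4990391 reads in abemaciclib tumours and from 3044380 to 4492736 reads in control tumours, and the labels name no batch. Luminal epithelial markers were present in every tumour, with a summed level of 5806 to 12482 CPM over the panel's 14 members in abemaciclib tumours and 6773 to 9539 CPM in control tumours. Krt8, a keratin of simple epithelium, averaged 1191 ± 711 CPM in abemaciclib tumours and 1204 ± 345 CPM in control tumours (SD).

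The macrophage, dendritic cell and lysosomal lists mostly rose with abemaciclib, while for the basal epithelial list a rise was uncertain. The part of these lists in the difference of Irx3 was not tested. Of 9 tested macrophage genes, 8 had positive log2 fold changes, with a median of 0.42, where 51.1% of all tested genes were positive. An unadjusted edgeR p under 0.05 was reached by 4 of them in the positive direction, against 7.59% of all tested genes, and by 1 in the negative direction, against 5.81%. Summed over the 10 macrophage genes on the panel, the level was 2059 to 4804 CPM in abemaciclib tumours and 1562 to 3286 CPM in control tumours. The 4 tested dendritic cell genes all had positive values (median 0.68, 3 of 4 at that p), and the sum over 7 was 71.0 to 179 CPM in abemaciclib tumours and 53.7 to 107 CPM in control tumours. So had the 10 lysosomal genes (median 0.41, 9 of 10 at that p), and their sum was 11618 to 18566 CPM in abemaciclib tumours and 7558 to 13259 CPM in control tumours. All 11 basal epithelial genes had positive fitted values, with a median of 0.39 and 0 at that p, and their sum was 1153 to 13618 CPM in abemaciclib tumours and 1404 to 5878 CPM in control tumours. By the difference of mean log2 CPM, 2 of these 11 were negative with TMM scaling and 4 with library totals. The groups overlapped in each of these sums, and no member of these lists was at 0 in every tumour.

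Neither the library total, the number of genes detected nor the share of reads from Rn7sk, a small nuclear RNA, showed a relation to log2 CPM of Irx3 within a group that passed a two-sided permutation test (6 correlations, smallest adjusted p 0.69 for Pearson's r and 0.666 for Spearman's rho). For these measures r was -0.37, -0.10 and 0.30 in abemaciclib tumours (rho -0.15, -0.11 and 0.31), and 0.09, -0.17 and 0.37 in control tumours (rho 0.10, -0.38 and 0.38). Without control tumours 1 and 9, the farthest from the median of Irx3, r in that group was -0.41, -0.78 and 0.69.

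The next comparison asked which panel genes moved with Irx3 from tumour to tumour inside the groups. Each gene's counts were fitted on the log2 CPM of Irx3 after centring it on its group mean, so the difference between groups did not enter. The slope is the log2 change of a gene for each log2 unit of Irx3. With all 23 tumours, 0 of 2924 genes had a shared slope at an adjusted p under 0.05 by edgeR's quasi-likelihood test, a background of 0%, and the smallest Benjamini-Hochberg adjusted p was 0.172. At an unadjusted p under 0.05 there were 202 positive (6.91%) and 207 negative (7.08%) slopes, together 14% of the genes tested. DESeq2's Wald test called 8 genes (0.274%) and limma-voom with quality weights 399 genes (13.6%), whereas limma-voom without those weights called 0. The weights were estimated from the same fit, with the Irx3 slope in it. Control tumour 9, which had the most Irx3, had the highest weight, 2.69. Control tumour 1 had a weight of 0.47, and abemaciclib tumour 9 had the lowest, 0.237. Without control tumour 1, the control with the least Irx3, edgeR itself called 163 of 2932 genes (5.56%), of which 83 had positive and 80 negative slopes. Over the 23 fits that each left out 1 tumour the count ran from 0 to 163, so this fit had the most calls. Of these 163 genes, 153 were also among the 399 called by limma-voom with quality weights in all 23 tumours. The 8 genes called by DESeq2 were in both sets. The fits shared their tumours, all but control tumour 1, so these overlaps are not separate evidence.

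The 8 genes were Afap1, Sntb2 and Ephb3 with positive slopes, and Actr3, Cirbp, Endod1, Herc3 and Hmg20b with negative slopes. All 8 were among the 20 named by their Pearson correlation with Irx3 over the 23 group-centred values. Both measures read the same association in the same 23 tumours, so this overlap was built in.

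Afap1 encodes an adaptor that binds actin filaments and Src. Its lowest, median and highest levels were 145, 171 and 284 CPM in abemaciclib tumours, against 102, 186 and 262 CPM in control tumours. The groups overlapped over most of this range. Afap1 had a group-centred r of 0.70 (permutation p = 8e-04, adjusted p = 0.0832) and a rho of 0.76 (permutation p = 7e-05, adjusted p = 0.0337), and r was 0.75 without control tumours 9 and 1, the farthest from the median. Its shared slope was 0.82 (SE 0.184). Sntb2, a syntrophin that links the dystrophin complex to signalling proteins, ranged from 143 to 202 CPM with a median of 184 CPM in abemaciclib tumours, and from 142 to 251 CPM with a median of 203 CPM in control tumours. Sntb2 had the highest group-centred r on the panel, 0.71 (permutation p = 0.00111, adjusted p = 0.0854), with a rho of 0.74 (permutation p = 0.00033, adjusted p = 0.0482), and r was 0.66 without the 2 farthest tumours. Ephb3, a receptor tyrosine kinase for ephrin-B ligands, lay between 39.6 and 71.9 CPM with a median of 50.6 CPM in abemaciclib tumours, against 44.4 to 97.3 CPM with a median of 66.0 CPM in control tumours. Its r was 0.34 in abemaciclib tumours and 0.82 in control tumours, and the difference of the slopes had an unadjusted edgeR p of 0.753.

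Src, the membrane-anchored tyrosine kinase, had an r of 0.84 in abemaciclib tumours and 0.60 in control tumours, with a group-centred r of 0.65 (permutation p = 0.00313, adjusted p = 0.120) and rho of 0.68 (permutation p = 0.00117, adjusted p = 0.0658). Its shared slope was 0.63 (SE 0.174) with all tumours, which did not pass the adjusted threshold by edgeR. Without control tumour 1, the leave-one-out fit with the most calls, it was 1.08 (SE 0.158, edgeR adjusted p = 0.00175). That was the smallest adjusted p of that fit. The slope of Src was thus steeper without control tumour 1. Yap1, the transcriptional coactivator restrained by the Hippo pathway, had an r of 0.44 in abemaciclib tumours and 0.73 in control tumours and a group-centred r of 0.64 (permutation p = 0.0031, adjusted p = 0.120). Fkbp4, a co-chaperone of Hsp90, Rbbp5, a core subunit of histone H3 lysine 4 methyltransferase complexes, and Pik3r4, the regulatory subunit of the class III PI3-kinase, had group-centred r of 0.67, 0.66 and 0.66. Appbp2 and Apba3, both encoding proteins that bind the amyloid precursor protein, were at 0.66 and 0.65. For the 10 highest genes the sign of r was positive in both groups. They were chosen by the group-centred r, which pools both groups, so the choice itself favours a shared sign.

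**Figure D3:**
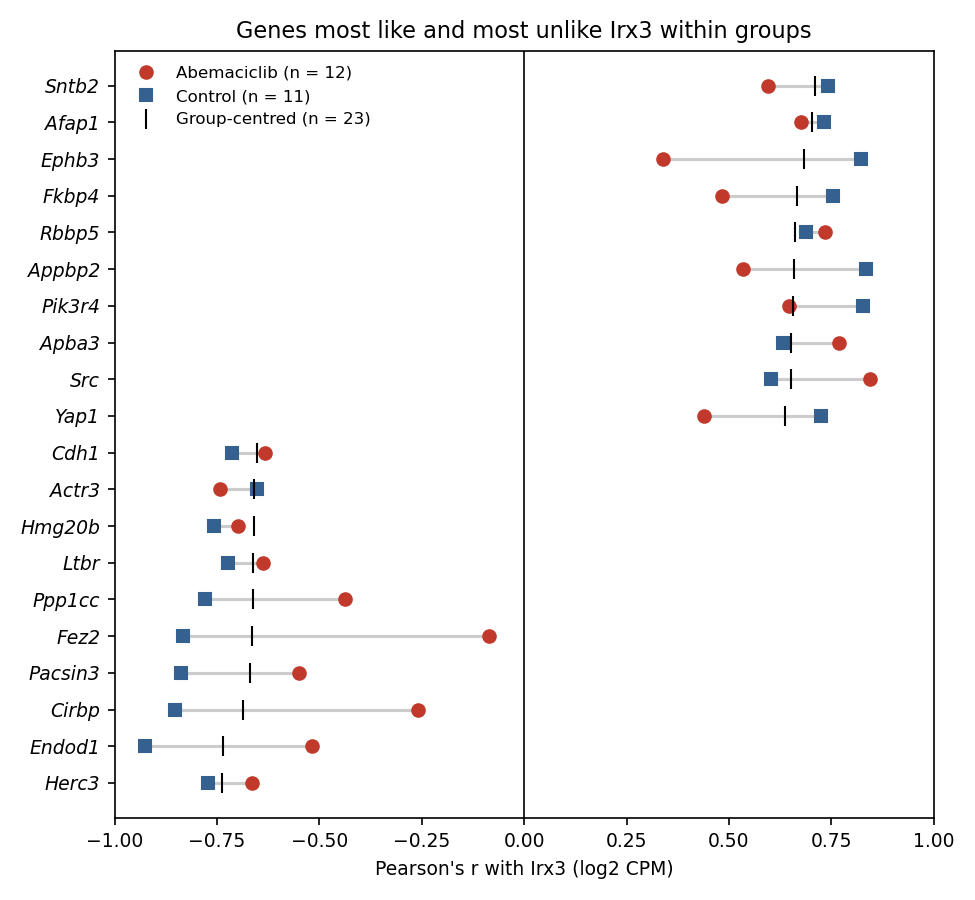
Pearson's r between log2 CPM of each gene and Irx3 in abemaciclib tumours (circles, n = 12), in control tumours (squares, n = 11) and over the group-centred values (bars, n = 23), for the 10 highest and 10 lowest group-centred r. The 2 groups' values have the same sign for all 20 genes, and Fez2 and Cirbp show wide gaps. The genes were chosen by the value pooled over both groups, which favours a shared sign.

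At the other edge, Herc3, a HECT-domain ubiquitin ligase, had the lowest group-centred r, -0.74 (permutation p = 0.00017, adjusted p = 0.0604; rho -0.67, permutation p = 0.00072, adjusted p = 0.0569). Its lowest, median and highest levels were 9.07, 13.9 and 24.7 CPM in abemaciclib tumours, and 4.13, 16.4 and 21.9 CPM in control tumours. The lowest Herc3 level of the series was in control tumour 9, which had the most Irx3. Its shared slope was -1.51 (SE 0.363), the steepest among the 8 genes. Endod1, which encodes a protein with an endonuclease domain, had an r of -0.52 in abemaciclib tumours and -0.93 in control tumours (permutation p = 0.00012, adjusted p = 0.351, rho -0.87), and r in control tumours was -0.83 without tumours 1 and 9. Cirbp, an RNA-binding protein induced by cold, had an r of -0.26 in abemaciclib tumours and -0.85 in control tumours, with a shared slope of -1.13 (SE 0.268). Actr3, a subunit of the Arp2/3 complex that nucleates branched actin, and Hmg20b, a subunit of a histone demethylase complex, were each at a group-centred r of -0.66, with shared slopes of -0.93 (SE 0.224) and -0.85 (SE 0.215).

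The remaining genes at this edge were Pacsin3, which bends membranes during endocytosis, Fez2, Ppp1cc, a catalytic subunit of protein phosphatase 1, Ltbr, the lymphotoxin beta receptor, and Cdh1. Their group-centred r ran from -0.67 to -0.65. Fez2 differed most between the groups among these 20 genes, with an r of -0.09 in abemaciclib tumours and -0.83 in control tumours. Over the whole panel, the difference of the slopes passed the adjusted threshold for 0 genes by edgeR (smallest adjusted p 0.818), and 177 genes (6.05%) had an unadjusted p under 0.05. DESeq2 and limma-voom, with and without quality weights, also called 0.

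**Figure D4:**
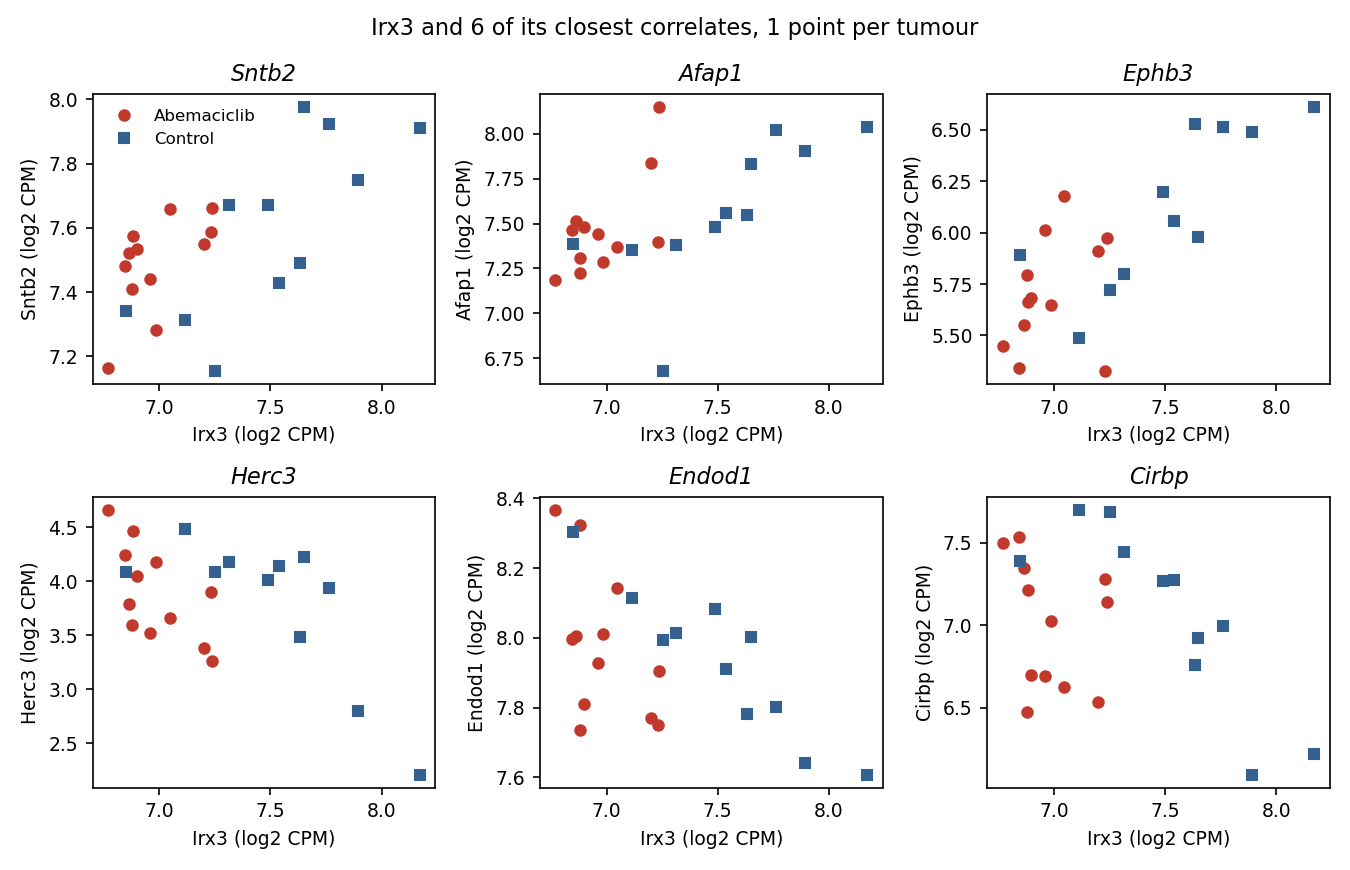
Irx3 (horizontal, log2 CPM) against 6 of its closest correlates (vertical, log2 CPM), 1 point per tumour, abemaciclib tumours as circles and control tumours as squares. Sntb2, Afap1 and Ephb3 run upward and Herc3, Endod1 and Cirbp downward, and the control tumours span the wider range of Irx3.

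Of 12 tested luminal epithelial genes, 9 had a positive and 3 a negative group-centred r with Irx3, with a median of 0.24. Cdh1 was the lowest of them and Epcam the highest, so this pair shows the extremes of the list and not its general course. Cdh1 encodes E-cadherin, which joins epithelial cells, and Epcam encodes an epithelial adhesion protein of the same tissue. Cdh1 lay between 1241 and 2592 CPM with a median of 1815 CPM in abemaciclib tumours, and between 1181 and 2749 CPM with a median of 1875 CPM in control tumours. Epcam lay between 838 and 1406 CPM with a median of 1169.8 CPM in abemaciclib tumours, and between 791 and 1758 CPM with a median of 1182 CPM in control tumours. Neither level separated the groups, with log2 fold changes of -0.03 (SE 0.141) for Cdh1 and -0.05 (SE 0.118) for Epcam. With Irx3, Cdh1 had an r of -0.63 in abemaciclib tumours and -0.71 in control tumours, and Epcam had 0.49 in abemaciclib tumours and 0.49 in control tumours. The group-centred r was -0.65 for Cdh1 (permutation p = 0.00087, adjusted p = 0.0832, rho -0.69) and 0.48 for Epcam (permutation p = 0.0462, adjusted p = 0.306, rho 0.56). Without control tumour 1 the shared slopes were -0.93 for Cdh1 (SE 0.245, edgeR adjusted p = 0.0313) and 0.80 for Epcam (SE 0.222, edgeR adjusted p = 0.0377). That was the leave-one-out fit with the most calls. With all 23 tumours neither gene passed by edgeR, by DESeq2 or by limma-voom without quality weights. Both genes passed by limma-voom with quality weights (adjusted p = 0.0148 for Cdh1 and 0.0206 for Epcam). Those weights were estimated with the Irx3 slope in the fit.

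Ranks gave a different count from linear values. By Spearman's rho over the group-centred values, 20 of 2924 genes (0.684%) passed an adjusted p under 0.05 in two-sided permutation tests, whereas by Pearson's r 0 passed and 463 genes (15.8%) had an unadjusted p under 0.05. The 20 included 11 with negative rho, among them Nvl, a ribosome assembly ATPase (rho -0.79, adjusted p = 0.0292), and Smarca5 and Pbrm1, subunits of chromatin remodelling complexes (rho -0.75, adjusted p = 0.0292, and -0.77, adjusted p = 0.0337). The 9 with positive rho included Pik3r4 (rho 0.80, adjusted p = 0.0292), Rbbp5 (rho 0.76, adjusted p = 0.0337) and Bptf, a subunit of a chromatin remodelling complex (rho 0.76, adjusted p = 0.0337). Smarca5, Pbrm1 and Bptf were chosen for naming after their values were seen.

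Within a single group the slopes were less certain. Among abemaciclib tumours alone, 0 of 2924 genes passed by edgeR's quasi-likelihood test (smallest adjusted p 0.282) and 375 genes (12.8%) had an unadjusted p under 0.05. In control tumours 0 passed (smallest adjusted p 0.503) and 233 genes (7.97%) had an unadjusted p under 0.05. DESeq2 and limma-voom without quality weights also called 0 in each group, and limma-voom with quality weights called 0 in abemaciclib tumours and 205 genes (7.01%) in control tumours. Without abemaciclib tumour 11, edgeR called 41 genes (1.41%) in the abemaciclib group, and without control tumour 1 it called 3 (0.102%) in the control group. These were the highest counts of the leave-one-out fits, which ran from 0 to 41 and from 0 to 3. Irx3 ran from 6.77 to 7.24 log2 CPM in abemaciclib tumours and from 6.85 to 8.17 in control tumours, with SDs of 0.16 and 0.37. Each slope was measured over these values. In simulated data with a slope of 1, edgeR recovered 2 of 67 genes in abemaciclib tumours and 37 of 67 in control tumours. Counts of 0 therefore do not show that slopes of this size were absent.

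The genes ranked highest within abemaciclib tumours were Foxo4 at an r of 0.90, Usf1 at 0.86, Src at 0.84, Foxj3 at 0.83 and Mcoln1 at 0.82. Foxo4 encodes a forkhead factor held in check by AKT, Usf1 an E-box-binding factor and Mcoln1 a calcium channel of the lysosome. In control tumours the same genes had an r of 0.28, 0.57, 0.60, -0.10 and 0.38. The lowest in abemaciclib tumours were Rrs1, a ribosome assembly factor, at -0.85, Rest, a repressor of neuronal genes, at -0.81, Rbl1, the RB-related pocket protein p107, at -0.81, Yy1 at -0.78 and Nvl at -0.77. Their r in control tumours was 0.08, -0.58, -0.12, 0.05 and -0.57. The permutation p was 0.00014 for Foxo4 (adjusted p = 0.249, rho 0.77) and 0.00055 for Rrs1 (adjusted p = 0.346, rho -0.75), and none of these 10 passed the adjusted threshold.

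The genes ranked highest within control tumours were Trpm2, a cation channel, at an r of 0.89, Setdb1, a histone H3 lysine 9 methyltransferase, at 0.85, Prpf4, a spliceosome subunit, at 0.85, Appbp2 at 0.83 and Pik3r4 at 0.83. In abemaciclib tumours these genes had an r of -0.05, 0.19, 0.31, 0.54 and 0.65. The lowest in control tumours were Endod1 at -0.93, Abcf3 at -0.86, Itgb1bp1, a regulator of integrin adhesion, at -0.86, Cirbp at -0.85 and Pacsin3 at -0.84. Their r in abemaciclib tumours was -0.52, -0.51, -0.39, -0.26 and -0.55. The permutation p was 0.00037 for Trpm2 (adjusted p = 0.356), and by rho Vamp5 and Rraga, 0.0684% of the genes tested, passed in control tumours at -0.95 each (adjusted p = 0.0439). These last genes were named after their values were seen, and in abemaciclib tumours their rho was -0.01 for Vamp5 and -0.41 for Rraga.

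Genes chosen in 1 group were then read in the other, which holds other tumours, and with TMM scaling most had the same sign. Of the 50 genes with the highest r in control tumours, 41 had a positive r in abemaciclib tumours, with a median of 0.28, where 47.7% of all tested genes were positive. Of the 50 lowest in control tumours, 41 were negative in abemaciclib tumours, with a median of -0.37, against 52.3% of all tested genes. Of the 50 highest in abemaciclib tumours, 46 were positive in control tumours, with a median of 0.35, against 51.8% of all tested genes. Of the 50 lowest in abemaciclib tumours, 42 were negative in control tumours, with a median of -0.41, against 48.2% of all tested genes. The sets of 50 were set after the data were seen, and genes that vary together are not independent, so these counts are a description. The housekeeping list, an alternative scaling, held 7 tested genes and was not free of Irx3. With TMM scaling, 2 of the 7 had a positive shared slope at an unadjusted edgeR p under 0.05, against 6.91% of all tested genes. Their r with Irx3 in control tumours ran from -0.63 to 0.76. With the housekeeping list as the scaling the counts were 36 and 22 for the control sets, against 66.4% positive and 33.6% negative among all tested genes, and 31 and 18 for the abemaciclib sets, against 49.4% and 50.6%. With DESeq2 size factors or upper-quartile factors they were 39 to 46 for the highest genes, where 48.3% to 58.2% of all tested genes were positive, and 39 to 41 for the lowest, where 41.8% to 51.7% were negative. With library totals they were 43 and 29 for the control sets, against 69.5% positive and 30.5% negative, and 41 and 38 for the abemaciclib sets, against 63.3% and 36.7%.

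All 24 G2/M genes, which drive mitosis, had negative log2 fold changes with abemaciclib, with a median of -1.03, and 24 of 24 had an unadjusted edgeR p under 0.05, where 5.81% of all tested genes were negative at that level. No gene passed the adjusted threshold of that contrast by edgeR (0%, smallest adjusted p 0.0574), and 13.4% of genes had an unadjusted p under 0.05. Their median r with Irx3 was -0.31 in abemaciclib tumours, where 24 of 24 were negative, and 0.14 in control tumours, where 18 of 24 were positive. The control values turned without control tumour 1, which had the least Irx3 and 35.8 CPM of Mki67, the lowest of its group: the median was then -0.37 and 2 of 24 were positive. The abemaciclib values turned with library totals as the scaling, to a median of 0.46 with 0 of 24 negative, where 30.5% of all tested genes were negative. With the housekeeping list as the scaling the abemaciclib median was -0.70. Their shared slope had an unadjusted p under 0.05 for 0 of 24 genes, against 14% of all tested genes. Mki67, a proliferation marker, had a group-centred r of -0.05 (permutation p = 0.788, adjusted p = 0.923, rho -0.13), with -0.30 in abemaciclib tumours and 0.16 in control tumours. The 3 abemaciclib tumours with the most Irx3 had 71.8 CPM of Mki67 in tumour 9, 15.1 CPM in tumour 11 and 9.05 CPM in tumour 7. The log2 fold change of Irx3 was -0.60 when log2 CPM of Mki67 was added to the fit, against -0.57 without it.

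The 17 E2F and replication genes had a median r of -0.21 in abemaciclib tumours, which was 0.53 with library totals as the scaling, and 0.04 in control tumours, which was -0.32 without control tumour 1. Of these genes 0 had a shared slope at an unadjusted p under 0.05. Among the 16 genes of the CDK and RB pathway, that count was also 0. Cdkn2c, which encodes the CDK4 and CDK6 inhibitor p18, and Slc11a1, a metal transporter of phagosomes, had group-centred r of -0.05 and -0.17 with Irx3. B2m, the shared light chain of class I MHC molecules, had an r of -0.20 in abemaciclib tumours and 0.50 in control tumours, and a group-centred r of 0.25. With TMM scaling, the 9 interferon response genes were all negative in abemaciclib tumours, with a median r of -0.28, and 7 of 9 were positive in control tumours, with a median of 0.24. With the housekeeping list as the scaling the interferon median in abemaciclib tumours was 0.50, and with library totals the control median was 0.04. The signs of these lists thus depended on the scaling or on 1 tumour, except for the interferon median in control tumours. That median was positive with every scaling, and was 0.29 with TMM scaling without control tumour 1. It turned to -0.19 with library totals and without control tumour 1 together. In the test of the slope difference 0 single genes passed.

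**Figure D5:**
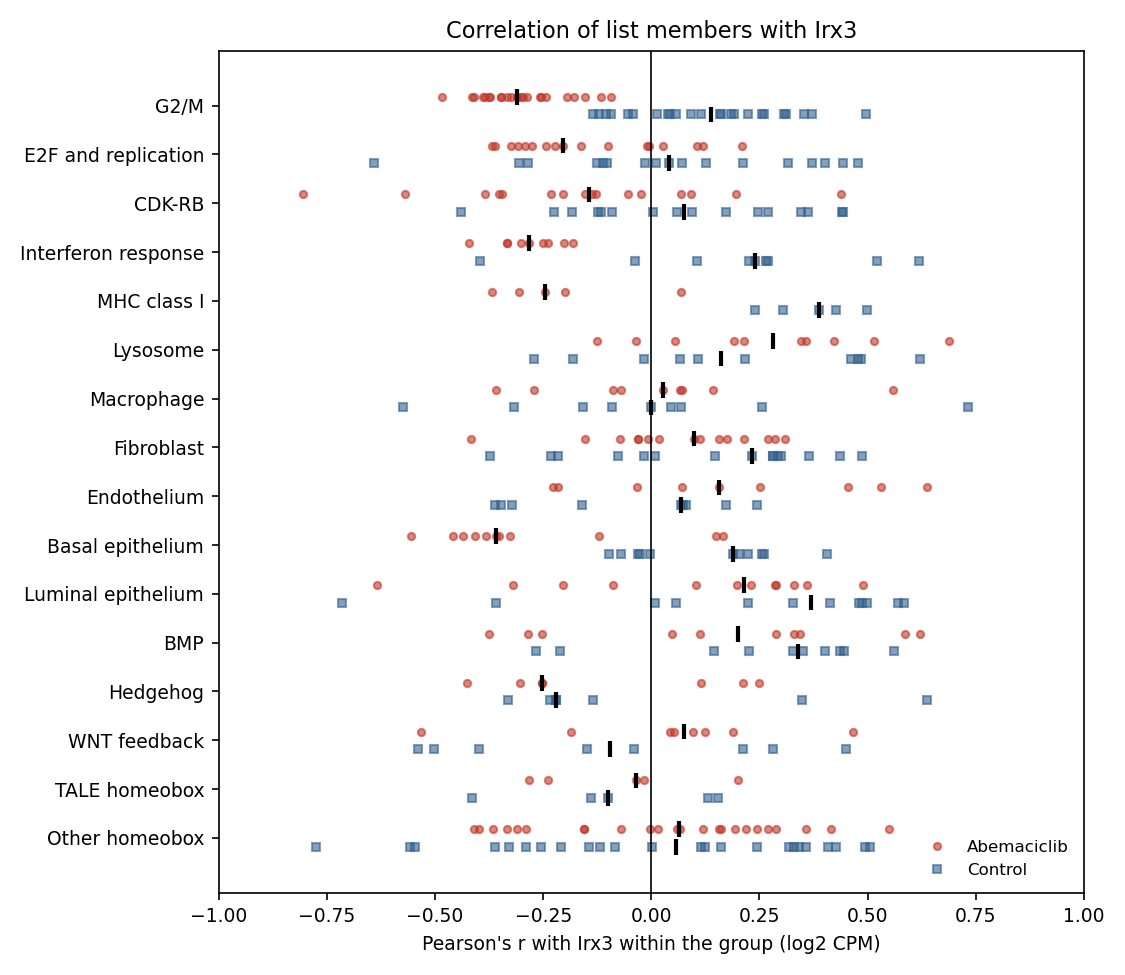
Pearson's r with Irx3 for each tested member of 16 gene lists, in abemaciclib tumours (circles, n = 12) and in control tumours (squares below them, n = 11), with black bars at the medians. With TMM scaling, the G2/M members lie between -0.48 and -0.09 in abemaciclib tumours and between -0.14 and 0.50 in control tumours, and these signs turn with library totals as the scaling and without control tumour 1.

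Relatives, partners and inputs of Irx3 were read from the same panel. Irx4 was the other Iroquois gene read, with 0 to 13 counts in abemaciclib tumours and 0 to 9 counts in control tumours, too few to be tested. Of 6 TALE relatives on the panel, 5 were tested and Meis2 was set aside. Tgif1, a transcriptional repressor, averaged 193 CPM in each group, and Meis1, a cofactor of Hox proteins, 19.1 CPM in abemaciclib tumours and 10.1 CPM in control tumours. None of the 5 had a shared slope at an unadjusted p under 0.05. Of 104 other homeobox genes on the panel, 24 were tested and 78 had a mean count under 10. Their median log2 fold change was 0.07, against 0.01 for all tested genes, and 5 of 24 had an unadjusted p under 0.05 in that contrast, where 13.4% of all tested genes did. Hopx, an atypical homeobox protein that does not bind DNA, was the sole member with a shared slope at an unadjusted p under 0.05 (-2.41, SE 0.992).

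Of 15 Hedgehog pathway genes on the panel, 7 were tested, and all 7 had negative log2 fold changes with abemaciclib, against 48.9% of all tested genes. Their median was -0.17, and 1 of 7 had an unadjusted p under 0.05, against 13.4% of all tested genes. Smo, the signal transducer of the pathway, was at 246 CPM in abemaciclib tumours and 267 CPM in control tumours, a log2 fold change of -0.12 (SE 0.102), and Gli3, a transcription factor of the pathway, was at 10.2 CPM in abemaciclib tumours and 14.3 CPM in control tumours, at -0.48 (SE 0.246). None of the 7 had a shared slope with Irx3 at an unadjusted p under 0.05, a level that 14% of all tested genes reached. Of 18 BMP pathway genes, 10 were tested, with a median group-centred r of 0.19. Bmpr2, a receptor, and Smad5, a signal transducer, had shared slopes of 0.72 (SE 0.276, unadjusted edgeR p = 0.0154) and 0.33 (SE 0.142, unadjusted edgeR p = 0.0293). That is 2 of 10 genes, against 14% of all tested genes. Neither passed the adjusted threshold by edgeR with all 23 tumours. Bmpr2 also did not pass by DESeq2's Wald test (adjusted p = 0.235) or by limma-voom without quality weights. It passed by limma-voom with quality weights (adjusted p = 0.00959) and by edgeR without control tumour 1 (slope 1.22, SE 0.311, adjusted p = 0.0308). That edgeR fit was the leave-one-out fit with the most calls.

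The cell type lists gave few shared slopes. Of 12 tested luminal epithelial genes, 1 had a positive (Epcam) and 1 a negative (Cdh1) shared slope at an unadjusted p under 0.05, and the median group-centred r was 0.24. For the 11 basal epithelial genes the median r was -0.36 in abemaciclib tumours, turning to 0.24 with library totals as the scaling, and 0.19 in control tumours, with 0 shared slopes at that level. Of 15 fibroblast genes 1 had such a slope, S100a4 with a group-centred r of -0.27. Endothelial genes gave 0 of 9, and macrophage genes gave 1 positive and 1 negative of 9, Fcgr1 at a group-centred r of 0.48 and Itgam at -0.46. Over all tested genes the share was 14%. Of 10 lysosomal genes, 2 had positive slopes at that level, the hydrolases Ctsa and Ctsz, with group-centred r of 0.51 and 0.44. For slopes within abemaciclib tumours, 3 of 11 basal genes were negative and 2 of 9 endothelial genes positive at that level. Fibroblast genes gave 1 of 15, macrophage genes 1 of 9, and luminal genes 1 positive and 1 negative of 12. The share of all tested genes was 12.8%. Within control tumours the basal and endothelial lists each gave 0.

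Near Irx3 on chromosome 8, 3 panel genes lay within 2 Mb. Rbl2, the RB-related pocket protein p130, averaged 18.5 ± 6.64 CPM in abemaciclib tumours and 21.7 ± 4.33 CPM in control tumours (SD), with a group-centred r of 0.03 with Irx3. Mmp2, a matrix metalloproteinase 1025220 bases away, averaged 345 ± 224 CPM in abemaciclib tumours and 206 ± 68.3 CPM in control tumours (SD). Its log2 fold change was 0.74 (SE 0.285, edgeR adjusted p = 0.216), opposite in sign to that of Irx3, and its group-centred r was 0.14. Tox3 had 0 to 3 counts in abemaciclib tumours and 0 to 5 counts in control tumours and was set aside. Neither Rbl2 nor Mmp2 had a shared slope with Irx3 at an unadjusted edgeR p under 0.05, and Tox3 was not fitted.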

How the data were processed

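The deposited table holds raw counts of reads per gene for 23 tumours, whole numbers with no normalization. Per the submitters' processing notes the genome build was mm10. No source used here gives the aligner, the counting program or the amplicon positions. Irx3, the gene lists and the rules for naming genes were chosen with earlier results of these data known.

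The counts were fitted with edgeR 4.0.16 under R 4.3.3. Here filterByExpr with the groups given kept 2925 of 3826 genes and set 901 aside, libraries were scaled by TMM, and glmQLFit and glmQLFTest gave two-sided tests with Benjamini-Hochberg adjustment at 0.05. Slopes were fitted on group-centred log2 CPM of Irx3 (prior count 2), shared by both groups or nested in group, over 2924 genes without Irx3. Correlations used permutation tests with 100000 resamples, within groups for centred values, adjusted over 2924 genes. DESeq2 1.42.0 and limma 3.58.1 (voom) were alternatives, beside other scalings, filters, covariates, low counts and left-out tumours.

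The named genes were the 10 highest and 10 lowest by group-centred r, the 5 highest and 5 lowest in each group, up to 3 members per list by shared-slope p, Iroquois and TALE genes, panel genes within 2 Mb, and Mki67, Cdkn2c, Slc11a1, B2m, Epcam and Krt8. Same-numbered tumours did not deviate together. No library was a copy of another, since chi-square per degree of freedom was at least 19.0 in 253 pairwise comparisons. The fits were tested on simulated data with slopes of 1, 2 and 3 in size, equal in both groups. For the shared slope edgeR recovered 39 of 67, 54 of 67 and 66 of 66 genes. In abemaciclib tumours alone it recovered 2 of 67, 17 of 67 and 37 of 66. In control tumours alone it recovered 37 of 67, 52 of 67 and 66 of 66. Of 2724 genes with no slope it called 7, 1 and 7 in these tests. Recovery of a slope difference was not tested. Positions are 1-based, from GENCODE M21.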

Additional observations from a re-analysis of the deposited data

How the results depend on the processing

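The log2 fold change of Irx3 kept its sign in every setting run, from -0.69 to -0.44 over 17 alternatives and from -0.62 to -0.49 when a tumour was left out. It was -0.44 without control tumours 4 and 9 and -0.67 without control tumours 1 and 5, both chosen after seeing the data. The count of shared slopes was 0 by edgeR, 8 by DESeq2 and 399 by limma-voom with quality weights, and 0 to 163 when a tumour was left out, with 163 without control tumour 1. In abemaciclib tumours it was 2 with no filter on low counts and 0 to 41 when a tumour was left out, with 41 without abemaciclib tumour 11. In control tumours it was 205 by limma-voom with quality weights and 0 to 3 when a tumour was left out, with 3 without control tumour 1. The count of differing slopes stayed at 0 in all 16 alternatives and 23 leave-one-out fits. The cause of these differences was not tested. Unadjusted counts of shared slopes ran from 180 to 870 over the alternatives. Over all 109 named genes, 207 of 3488 recomputed values of r moved by more than a standard error and 124 changed sign. Of the 31 genes with an absolute r of at least 0.5, 66 of 992 values moved and 2 changed sign. That standard error came from the number of tumours, on Fisher's z scale of r, and not from a measured spread.

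Tumour numbers repeat between the groups, so a fit with the number as a replicate block was run. The log2 fold change of Irx3 was -0.53 with this block, and the shared-slope count was 0. Over 11 same-numbered pairs the correlation of deviations ran from -0.43 to 0.45 with a median of 0.0862, 5 pairs were over 0.1, and 2 abemaciclib tumours correlated best with their own number. The block was therefore not used elsewhere. Irx3 was read at least 348 times in each library, whereas Irx4, Tox3 and 78 of 104 homeobox genes were read too rarely to compare.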
